A study of Bombyx mori with 6 samples.

Results

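The cytosolic ribosomal proteins of the silkworm Bombyx mori were described in testis of a male sterile line and of wild type. Members were all genes of the deposited count table whose NCBI symbol is RpL or RpS followed by a number, with an optional letter, or RpP0, RpP1 or RpP2. This gave 75 of 15884 genes, 45 of the large subunit (with the stalk proteins RpP0 and RpP1) and 30 of the small subunit. The rule uses symbols and no measured value, but it was chosen with earlier results of these data known. The table's 4 other ribosomal symbols, RpSA, RpLP2, RpS3Ae and RpL7Ae, are written in another form and were not members. Mitochondrial ribosomal proteins were also left out.

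RNA was sequenced from testes of larvae on day 5 of the fifth instar. The WT group was strain 898WB, labelled wild type (n = 3 libraries), and the GMS group was a genetic male sterile line, labelled mutant type (n = 3). The series describes 898WB as the wild type of GMS. The labels name no mutated gene, and the series calls the libraries of a group biological replicates without saying how many animals each holds. The p-values below therefore rest on the variation among these 6 libraries.

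The cytosolic ribosome consists of a small subunit, which binds mRNA and decodes it, and a large subunit, which joins amino acids and carries the tunnel through which the new protein leaves. Each subunit is a core of ribosomal RNA dressed with many small, mostly basic proteins, and most of these proteins are present in a single copy per ribosome. Cells make them in matched amounts, and in many animals their mRNAs are regulated together at the level of translation by growth signals. In the testis of flies, spermatocytes grow for a long time before meiosis, and later stages depend largely on stored mRNA.

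Library totals ran from 19627477 to 28358501 counted reads. Levels are given in CPM, read counts scaled to library size times a TMM factor (0.959 to 1.04 per library). Before that factor, 3 counts stood for 0.106 to 0.153 CPM in a single library. WT replicate 3 stood apart from the other WT libraries, with correlations of log2 CPM of 0.985 and 0.982 to them, against 0.995 between each pair of GMS libraries. The counts of members called, and the called changes of the main test that moved by more than 1.5 times without it, are given both ways. Of the testis germ cell markers, 6 of the 7 in the table were tested, and 3 were higher and 2 lower in GMS. Their summed level was 32282 to 36923 CPM in WT and 26558 to 27241 CPM in GMS. The median log2 change over those tested was 0.18, so the sum and the median went in opposite directions. Among these markers Boule, needed for meiosis in male germ cells of flies, had 1 read in each of 3 libraries and was not tested. Of the fat body and haemolymph markers 6 of 7 were lower in GMS, with summed levels of 376 to 502 CPM in WT and 196 to 210 CPM in GMS. Summed haemocyte markers (3 of 4 tested, 2 higher and 1 lower) were 83.1 to 102 CPM in WT and 119 to 132 CPM in GMS, and the single muscle marker in the table, TpnI, was 9.33 to 11.8 CPM in WT and 14.2 to 15.8 CPM in GMS. Of 201 cuticle protein genes in the table, 34 had no reads, and of 73 tested 26 were higher and 21 lower, with sums of 1273 to 1497 CPM in WT and 1486 to 1562 CPM in GMS. The part of these shifts in the ribosomal results was not tested. In whole testis a change in the number of cells of a type and a change in RNA per cell cannot be told apart.

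In the main test the ribosomal protein mRNAs differed little in level between GMS and WT testis, and those called were all higher in GMS. This was not so without WT replicate 3, where 13 members were higher and 7 lower. Of the 74 members tested, 15 rose in GMS, 0 fell and 59 did not pass (edgeR quasi-likelihood test, adjusted p under 0.05 over all genes). The members that rose were 20.3% of those tested, beside 17.6% of all 12029 genes tested that were called higher and 18.6% called lower, so the share that rose was near the background. At an unadjusted p under 0.05, 26 members were higher (24.0% of all genes) and 0 lower (22.7%). DESeq2 called 10 higher (15.5% of all genes) and 0 lower (18.6%), and limma-voom 17 higher (19.9%) and 0 lower (19.0%). The changes were small. No member reached a 2-fold change, while 1238 genes of the table were called with at least that, and the median absolute log2 change was 0.12 over the members and 0.25 over all genes. Signed log2 changes of the members ran from -0.09 to 0.49 with a median of 0.12, beside a median of 0.05 over all genes. The change was above 0 in 71 members and below 0 in RpL3, RpL8 and RpL15. The large subunit had 10 of 45 members called higher and a median of 0.13, and the small subunit 5 of 29 and a median of 0.12. With WT replicate 3 left out these were 8 higher and 5 lower of the large subunit, at a median of 0.021, and 5 higher and 2 lower of the small subunit, at a median of 0.0028.

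The number of calls depended on the scaling of the libraries. With library totals alone, 55 members were called higher (27.1% of all genes) and the median was 0.22, with an all-gene median of 0.15. With DESeq2 size factors 10 were called (15.9% of all genes). With upper-quartile factors 4 were called (14.3%), at a median of 0.06 and an all-gene median of -0.01. The change of scaling to library totals moved the all-gene median by 0.10, and the members' median moved with it. The members' median lay 0.08 above that of all genes in the main test and with library totals. With DESeq2 size factors and with upper-quartile factors it lay 0.07 above, and without WT replicate 3 it lay 0.012 above. RpS12, RpL41, RpL38 and RpL29 were called higher under all 4 scalings compared, as were 14.2% of all genes tested.

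WT replicate 3 was low in most of the family. Its CPM was below both other WT libraries in 68 of 74 members (91.9%, against 42.0% of all genes), and above both in 5, RpL20, RpL29, RpL38, RpL39 and RpL41 (42.5% of all genes). The median log2 ratio of this library to the mean of the other WT libraries was -0.19 over members and 0.00 over all genes. Without it, 13 members were higher (17.6%) and 7 lower (9.46%), beside 29.0% of all genes in each direction, and the median log2 change over members was 0.012. The change was then above 0 in 46 members and below 0 in 28. Of the 15 members called over 6 libraries 12 were called again, while RpL18, RpL28 and RpL31 were not and RpL39, which lines the exit tunnel, was added. The members then lower were RpL3, RpL8, RpL10, RpL15, RpL23A, RpS2e and RpS9, of which RpL23A, RpS2e and RpS9 are named after their values were seen. Leaving out another library lowered the count of higher members to 6 without WT replicate 1 (11.2% of all genes), 12 without WT replicate 2 (13.3%), 4 without GMS replicate 1 (11.2%), 10 without GMS replicate 2 (11.7%) and 3 without GMS replicate 3 (11.2%).

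**Figure D1:**
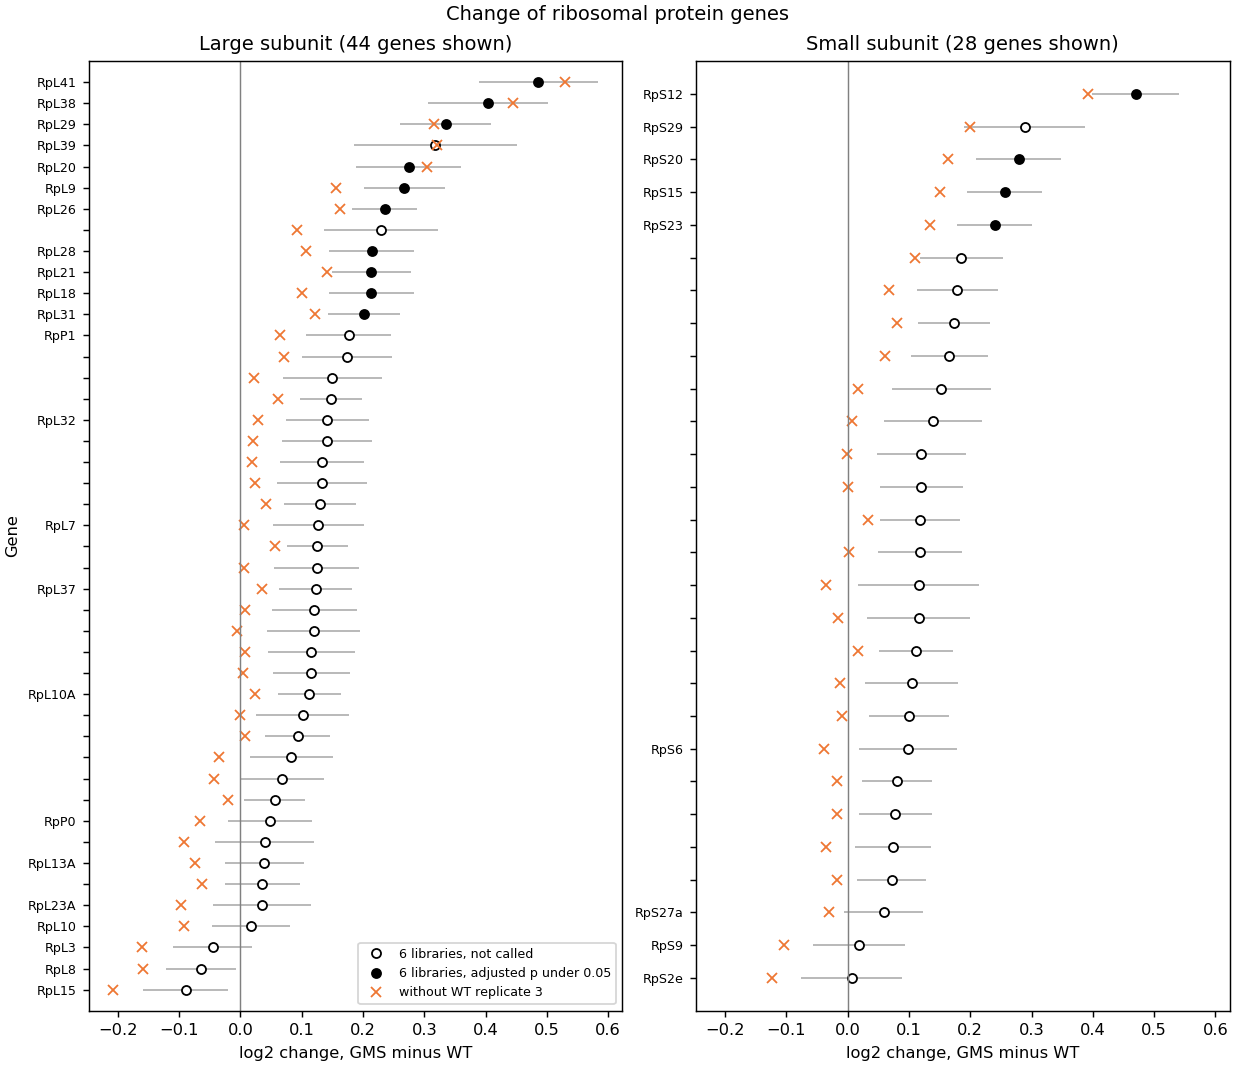
Log2 change of tested ribosomal protein genes, GMS minus WT, with the standard error (lines), ordered by size within each subunit. Genes named in the text carry their symbol, and 2 tested members are not shown. Filled points passed an adjusted p under 0.05 over 6 libraries, open points did not, and crosses give the change without WT replicate 3. The crosses lie left of the points except in RpL20, RpL38, RpL39 and RpL41.

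RpS12 rose in the main test and in every alternative run. This small subunit protein is known in Drosophila for its part in the competition between cells that differ in ribosomal protein gene dose. Its mRNA (gene 732856) was at 125, 117 and 113 CPM in the WT libraries and at 158, 155 and 179 CPM in the GMS libraries. All GMS libraries were above all WT libraries. The means were 118 ± 5.73 CPM (SD, n = 3) in WT and 164 ± 13 CPM (SD, n = 3) in GMS. The log2 change was 0.47 with a standard error of 0.07 (edgeR, adjusted p = 0.00189), a rise of 38.5%. Without WT replicate 3 it was 0.39 (edgeR, adjusted p = 2.37e-05), and the call was made in 17 of 17 alternatives.

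RpL41, the smallest ribosomal protein, made almost wholly of basic residues and seated between the subunits, had the largest change. RpL41 was at 36.1, 39.4 and 45.2 CPM in WT and at 56.3, 60.2 and 52.6 CPM in GMS. The groups did not overlap, and the third WT library was the highest of its group here, against its place in most of the family. The log2 change of RpL41 was 0.49 ± 0.10 (SE; edgeR, adjusted p = 0.00703), or 40.1%, and 0.53 without WT replicate 3. It too was called in 17 of 17 alternatives. RpS12 and RpL41 were the only members called higher whichever of the 6 libraries was left out.

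RpL38, which in the mouse is needed for translation of Hox mRNAs, was at 21.0, 19.0 and 23.9 CPM in WT and 27.3, 27.8 and 29.3 CPM in GMS. Its log2 change was 0.40 ± 0.10 (SE; edgeR, adjusted p = 0.0159). RpL29, another short large subunit protein, was at 22.6, 24.6 and 25 CPM in WT and 30.0, 29.4 and 31.7 CPM in GMS. Its log2 change was 0.34 ± 0.07 (SE; edgeR, adjusted p = 0.0109). Neither gene overlapped between the groups, and both rose as well without WT replicate 3, by 0.45 and 0.32. RpL39 had a log2 change of 0.32, close to that of RpL29, with 9.37, 10.1 and 10.9 CPM in WT and 13.5, 14.0 and 10.5 CPM in GMS. Its groups overlapped because the third GMS library was low, and it did not pass (edgeR, adjusted p = 0.102).

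**Figure D2:**
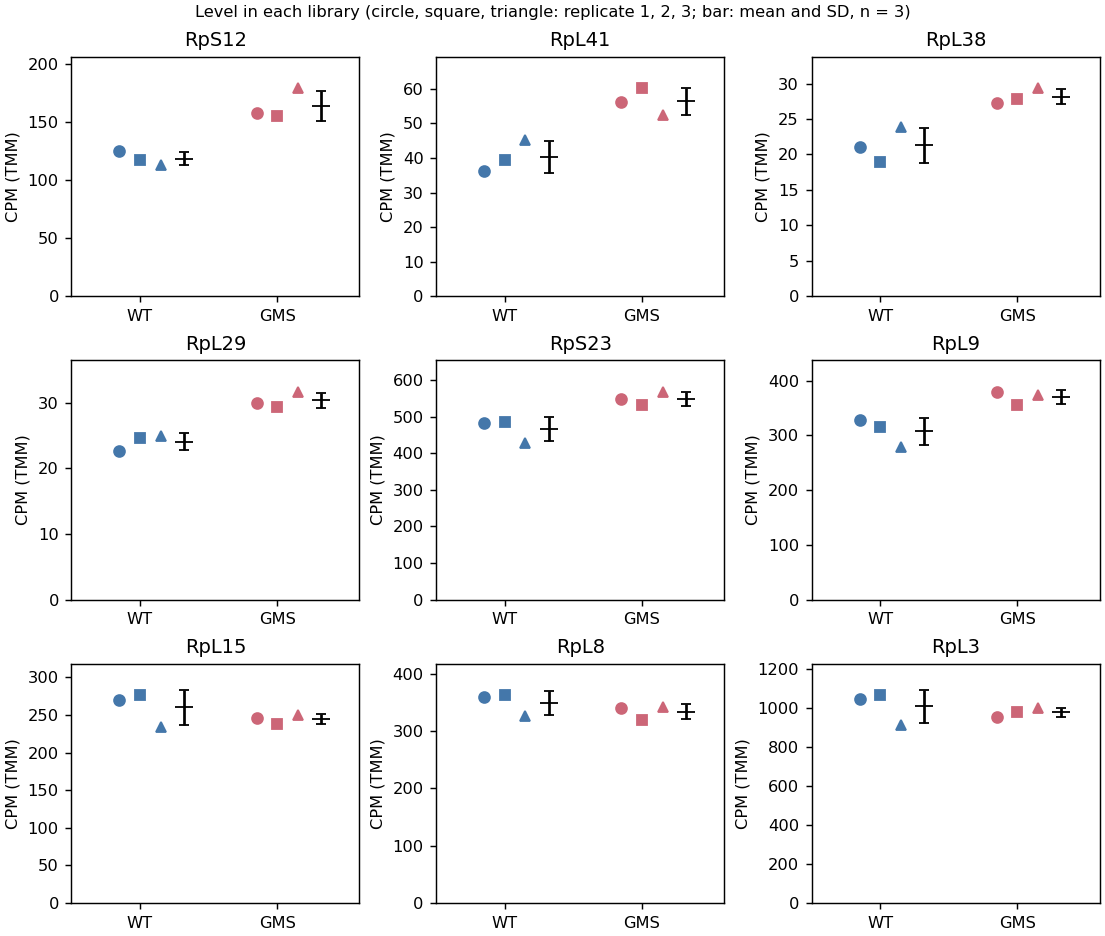
TMM-normalised CPM of 9 ribosomal protein genes in each library (circle, square and triangle for replicates 1, 2 and 3, with group mean and SD, n = 3 per group). The upper 6 genes passed the test and their groups do not overlap. In RpL15, RpL8 and RpL3 the groups overlap, and WT replicate 3 is the lowest WT library.

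RpS23, RpS15 and RpS20 of the small subunit also rose. RpS23, which sits at the decoding centre and bears on its accuracy, was at 484, 484 and 427 CPM in WT and at 548, 531 and 568 CPM in GMS. Its log2 change was 0.24 (edgeR, adjusted p = 0.0195). RpS15 and RpS20, proteins of the head of the small subunit, changed by 0.26 and 0.28 (edgeR, adjusted p = 0.0157 and 0.0184). RpS20 was at 149, 158 and 132 CPM in WT and at 178, 173 and 182 CPM in GMS, with the third WT library again the lowest. RpS23, RpS15 and RpS20 were also called without WT replicate 3, at smaller log2 changes of 0.13, 0.15 and 0.16.

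Of the large subunit, RpL9, which lies at the base of the stalk, was at 327, 315 and 280 CPM in WT and at 380.0, 355 and 375 CPM in GMS. The groups did not overlap, and the log2 change was 0.27 (edgeR, adjusted p = 0.0176), or 0.16 without WT replicate 3. RpL26 and RpL31, both near the mouth of the exit tunnel, changed by 0.24 and 0.20 (edgeR, adjusted p = 0.0121 and 0.0320). RpL18, RpL21 and RpL28 each changed by 0.21 (edgeR, adjusted p = 0.0470, 0.0349 and 0.0457), and budding yeast has no counterpart of RpL28. The changes without WT replicate 3 were 0.16 in RpL26, 0.14 in RpL21, and 0.12, 0.11 and 0.10 in RpL31, RpL28 and RpL18, of which the last 3 did not pass. The gene with the symbol RpL20 was at 94.5, 82.1 and 103 CPM in WT and 116, 113 and 109 CPM in GMS, a log2 change of 0.27 (edgeR, adjusted p = 0.0416). RpL20 had the longest gene model of the family, 1533 bases. It is counted by its symbol, and whether it encodes a cytosolic or a mitochondrial protein was not settled here. Changes of the 15 members that rose ran from 15.04% to 40.1%. In all 15 the groups did not overlap. Over the family, GMS lay above WT without overlap in 35 of 74 members (47.3%, against 26.2% of all genes) and below it in 0 (24.8% of all genes).

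The stalk proteins, the ubiquitin fusion and RpS6 did not pass. The stalk recruits the GTPases of translation. Its base protein RpP0 was at 441, 459 and 389 CPM in WT and 439, 429 and 465 CPM in GMS, with overlapping groups and a log2 change of 0.05 (edgeR, adjusted p = 0.608), which turned to -0.066 without WT replicate 3. The acidic stalk protein RpP1 was at 296, 295 and 257 CPM in WT and 326, 301 and 331 CPM in GMS, a log2 change of 0.18 that did not pass (edgeR, adjusted p = 0.0846) and was 0.065 without WT replicate 3. RpLP2, the table's symbol for its partner, gave 0.20 (edgeR, adjusted p = 0.0533), and the other symbols outside the rule, RpSA, RpS3Ae and RpL7Ae, did not pass either, at 0.13, 0.09 and 0.16. These 4 ranged, without WT replicate 3, from -0.032 in RpS3Ae to 0.095 in RpLP2. RpS6, the substrate of S6 kinase, was at 523, 543 and 438 CPM in WT and 548, 523 and 539 CPM in GMS. Its log2 change was 0.10 (edgeR, adjusted p = 0.368) and -0.04 without WT replicate 3. RpS27a, made as a fusion with ubiquitin, gave 0.06 (edgeR, adjusted p = 0.503) and -0.031 without WT replicate 3. RpL32, often used as a reference gene in insect quantitative PCR and named here for that use after its value was seen, gave 0.14 (edgeR, adjusted p = 0.137) and 0.03 without WT replicate 3.

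The 3 lowest changes belonged to proteins of the large subunit core. RpL3, which reaches towards the peptidyl transferase centre and is also a common reference gene in silkworm, was the most abundant member by CPM. RpL3 was at 1046, 1065 and 910.0 CPM in WT and at 952, 978 and 999 CPM in GMS. The groups overlapped through the third WT library, and the log2 change was -0.05 (edgeR, adjusted p = 0.610). Without that library it was -0.16 (edgeR, adjusted p = 0.000359). RpL8, another protein close to the peptidyl transferase centre, went from -0.06 (edgeR, adjusted p = 0.409) to -0.16 (edgeR, adjusted p = 0.00239) in the same way. RpL15, a protein embedded in the RNA core, went from -0.09 (edgeR, adjusted p = 0.343) to -0.21 (edgeR, adjusted p = 0.000266).

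How members moved against each other was measured with the library size set to the reads of the family itself, which removes any shift the members share. Relative to the family, 5 members were higher in GMS (6.76%, against 9.19% of all genes) and 3 lower (4.05%, against 23.9%). RpS12 rose by 0.36 ± 0.07 on the log2 scale (SE; edgeR, adjusted p = 0.00814), and was called in 9 of 9 alternatives. RpL9, RpS20, RpS23 and RpS15 rose by 0.13 to 0.17 (edgeR, adjusted p = 0.0251, 0.0252, 0.0255 and 0.0495), and each was called in at most 4 of the 9. RpL15 fell by 0.20 (edgeR, adjusted p = 0.00845; called in 8 of 9 alternatives), RpL8 by 0.17 (edgeR, adjusted p = 0.0130; 5 of 9) and RpL3 by 0.15 (edgeR, adjusted p = 0.0156; 5 of 9). RpL41 and RpL38 had relative changes of 0.37 and 0.28 that did not pass (edgeR, adjusted p = 0.103 and 0.185), with WT replicate 3 high in both. Without WT replicate 3, 12 members were higher relative to the family (16.2%, against 27.7% of all genes) and 4 lower (5.41%, against 27.9%), the added one being RpS2e.

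Per gene length, the family was among the most abundant transcripts of the testis and spanned a wide range. In RPKM, reads scaled to gene length and library total, the mean over 6 libraries ran from 21.3 for RpL39 to 342 for RpS23, a ratio of 16.0. The median member had 152 RPKM, beside 4.25 RPKM for the median of all genes tested, and 97.6% of genes lay below it. In all, 71 of the 74 members were in the top 10% of genes, and 59 lay between 100 and 300 RPKM. The highest were RpS23 (307 RPKM in WT, 377 in GMS), RpL3 (318 and 321), RpS6 (247 and 275), RpL13A (247 and 265) and RpL10, which joins the large subunit late in its assembly (239 and 251). Under 60 RPKM were 5 of the tested members. These were RpL39 (18.6 RPKM in WT, 24.1 in GMS), RpL20 (24.5 and 30.9), RpL38 (23.4 and 32.2), RpL29 (35.1 and 46.1) and RpS29 (41.5 and 52.8), the last named after its value was seen. RpL39, RpL38, RpL29 and RpS29 were among the 10 shortest gene models of the tested members (220 to 366 bases), and RpL20 had the longest, 1533 bases. The other members among the 10 shortest lay above 60 RPKM. The part of gene length in these levels was not tested. RPKM is scaled to read totals without TMM factors. The order of members was nearly the same in both groups, with a Pearson r of 0.99 and a Spearman rho of 0.99 between their mean log2 RPKM across 74 genes. Genes are not independent replicates, and both axes share gene lengths.

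**Figure D3:**
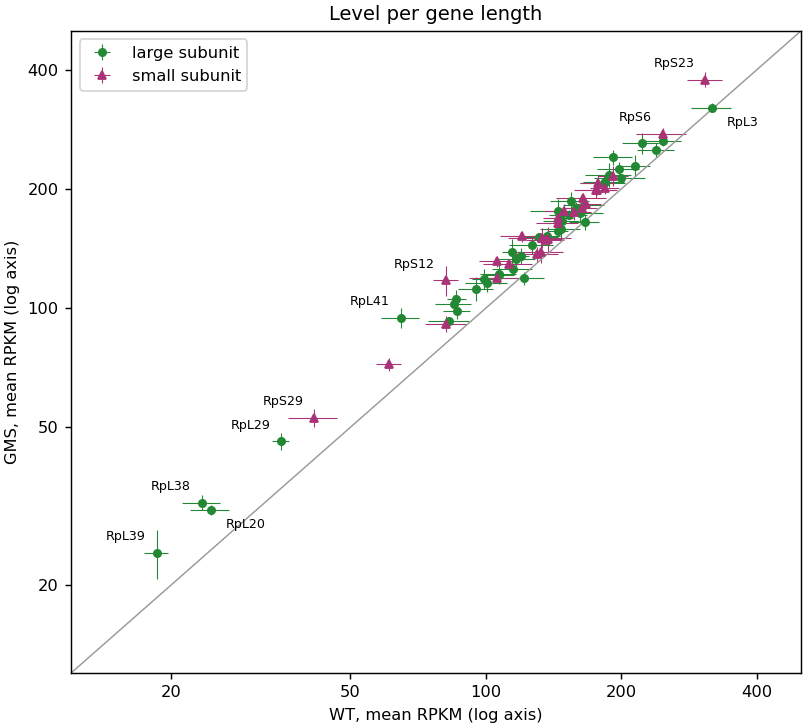
Mean RPKM of tested ribosomal protein genes (2 tested members are not shown) in WT (x) and GMS (y), on log axes, with SD over 3 libraries as lines and the diagonal marking equal values. The order of members is similar in both groups, and RpL3 lies on the diagonal. The low members RpL39, RpL38, RpL29 and RpL41 lie above it, as do most other members, with RpS23 and RpS6 among them.

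RpS24 (gene 100101150, 487 bases), a small subunit protein, was the single member not tested. It had 1 read in WT replicate 2 and 0 reads in the other 5 libraries, under the floor of 3 counts in every library.

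The share of counted reads that fell in the family was 1.72%, 1.76% and 1.55% in the WT libraries and 1.96%, 1.88% and 1.98% in the GMS libraries. All GMS libraries were above all WT libraries, and the third WT library was the lowest. The means were 1.68% ± 0.109 (SD, n = 3) and 1.94% ± 0.050 (SD, n = 3), a difference of 0.263 percentage points and a ratio of 1.16 (exact permutation test, 2-sided, p = 0.1, the smallest that 3 against 3 allows). With TMM-scaled library sizes the difference was 0.136 points and the groups overlapped (exact permutation test, p = 0.2). Without WT replicate 3 the ratio of shares was 1.12.

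**Figure D4:**
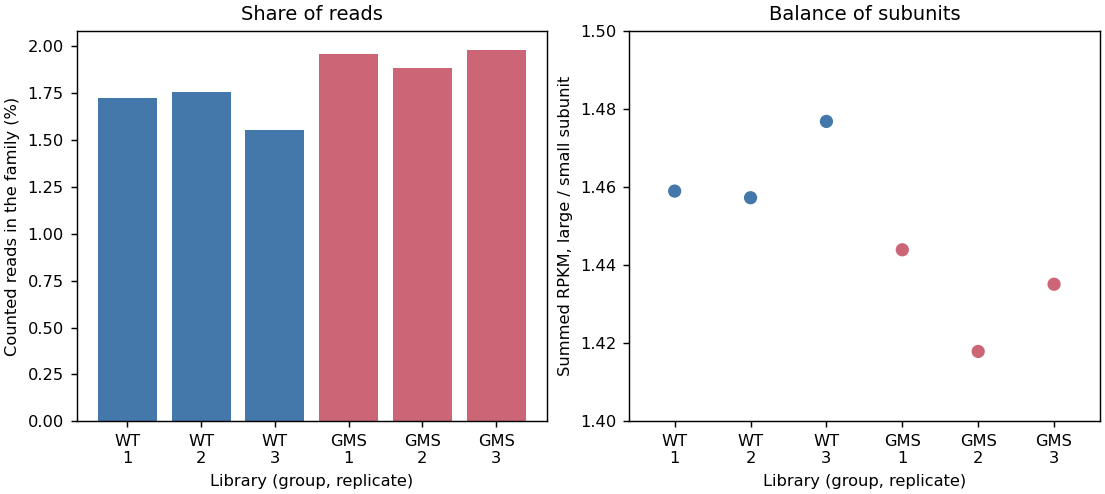
Left, percent of counted reads in the 75 ribosomal protein genes per library, with bars from 0. Right, ratio of summed large to summed small subunit RPKM per library, on an axis that does not start at 0. The GMS shares of 1.88% to 1.98% exceed the WT shares of 1.55% to 1.76%, while the ratios differ by little.

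Summed large over summed small subunit RPKM was 1.459, 1.457 and 1.477 in the WT libraries and 1.444, 1.418 and 1.435 in the GMS libraries. The GMS values were all below the WT values, by a log2 difference of only -0.03 (exact permutation test, 2-sided, p = 0.1, the smallest possible). It was -0.02 without the 5 most abundant members (exact permutation test, p = 0.4), -0.01 with geometric means (exact permutation test, p = 0.9) and -0.06 with medians (exact permutation test, p = 0.1). Without WT replicate 3 the log2 difference was -0.026 (exact permutation test, p = 0.2, above the smallest possible). The spread of levels among members, as the SD of log2 RPKM, was 0.80, 0.80 and 0.72 in WT and 0.72, 0.70 and 0.74 in GMS. The third WT library lay among the GMS libraries, and the difference was -0.06 (exact permutation test, p = 0.2, where 0.1 is the smallest possible). GMS was below WT in every library, at that smallest p, without WT replicate 3 (-0.08), without the 3 highest and 3 lowest members (-0.04) and with the interquartile range (-0.02).

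Changes were larger in the shorter genes of the family. Over 74 members the log2 change had a Pearson r of -0.45 with log2 gene length and a Spearman rho of -0.40 with gene length, and both were -0.46 without WT replicate 3. Over all genes tested the Spearman value was 0.05. The points share the same 6 libraries. The 10 shortest members (220 to 366 bases, with RpL29, RpL38, RpL39 and RpL41 among them) had a median log2 change of 0.26, and 3 of them rose. The 10 longest members (949 to 1533 bases, with RpL3, RpP0 and RpL20 among them) had a median of 0.12, and 1 of them rose. Of all genes tested, 17.6% were called higher, and neither count was far from that share. Without WT replicate 3 the medians were 0.16 and -0.00. The deviation of WT replicate 3 from the other WT libraries also moved with length over members (Pearson r of -0.34). The part of gene length in the changes was not tested.

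The members lie apart in the genome. All 75 were placed on 25 chromosomes of the RefSeq assembly, and only 3 pairs had a single gene between them, namely RpL10A with RpP1, RpL37 with RpL20, and RpL7 with RpS12. RpS12 and RpL20 rose and their neighbours RpL7 and RpL37 did not pass.

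Genes that work with the ribosome were read from the same fit. Of 14 translation factors, 4 fell in GMS (beside 18.6% of all genes) and 0 rose (0 higher at an unadjusted p under 0.05, and 0 by DESeq2 or limma-voom), with a median log2 change of -0.04. EF1a, which delivers tRNA to the ribosome, was at 2725, 2835 and 2484 CPM in WT and 2403, 2322 and 2356 CPM in GMS, and fell by 0.18 (edgeR, adjusted p = 0.0335). Eif-4a, the helicase that unwinds mRNA at initiation, fell by 0.18, and eIF3-S7 and eIF3c, subunits of an initiation factor, by 0.28 and 0.27 (edgeR, adjusted p = 0.0314, 0.0180 and 0.0175). All 4 had GMS below WT in every library. Without WT replicate 3 the 4 factors fell by 0.28 in EF1a and Eif-4a, 0.39 in eIF3-S7 and 0.38 in eIF3c. The factors that fell were then 7 of 14, beside 29.0% of all genes. With library totals, or without any one of WT replicate 1 and GMS replicates 1, 2 and 3, 0 factors fell. Without WT replicate 2, 1 factor fell. With library totals 3 factors rose, beside 27.1% of all genes.

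Of 10 mitochondrial ribosomal proteins, mRpS12 fell by 0.36 (edgeR, adjusted p = 0.00738) from 57.0 ± 4.33 CPM (SD, n = 3) to 44.5 ± 0.971 CPM (SD, n = 3). The other 9 did not pass, beside 18.6% of all genes called lower and 17.6% called higher. The median log2 change of the 10 was 0.01. Without WT replicate 3, 1 rose and 3 fell, beside 29.0% of all genes in each direction. Of 6 ribosome-associated genes, Rack1, a scaffold bound to the small subunit, had a log2 change of 0.19 and Srp9, a protein of the signal recognition particle, one of 0.54, without passing (edgeR, adjusted p = 0.0508 and 0.0784). DESeq2 called 1 of the 6 higher (15.5% of all genes) and limma-voom 2 (19.9%). With WT replicate 3 left out, 1 of the 6 rose and 2 fell, beside the same 29.0% of all genes in each direction. The exosome subunit Rrp40 and Nol8, the only 2 biogenesis genes with a symbol in the table, did not pass, at 0.07 and 0.19 (edgeR, adjusted p = 0.531 and 0.197), and Nol8 rose without WT replicate 3, by 0.26. InR, myc and Rheb, which signal growth, gave 0.02, 0.04 and -0.05 (edgeR, adjusted p = 0.879, 0.751 and 0.900).

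**Figure D5:**
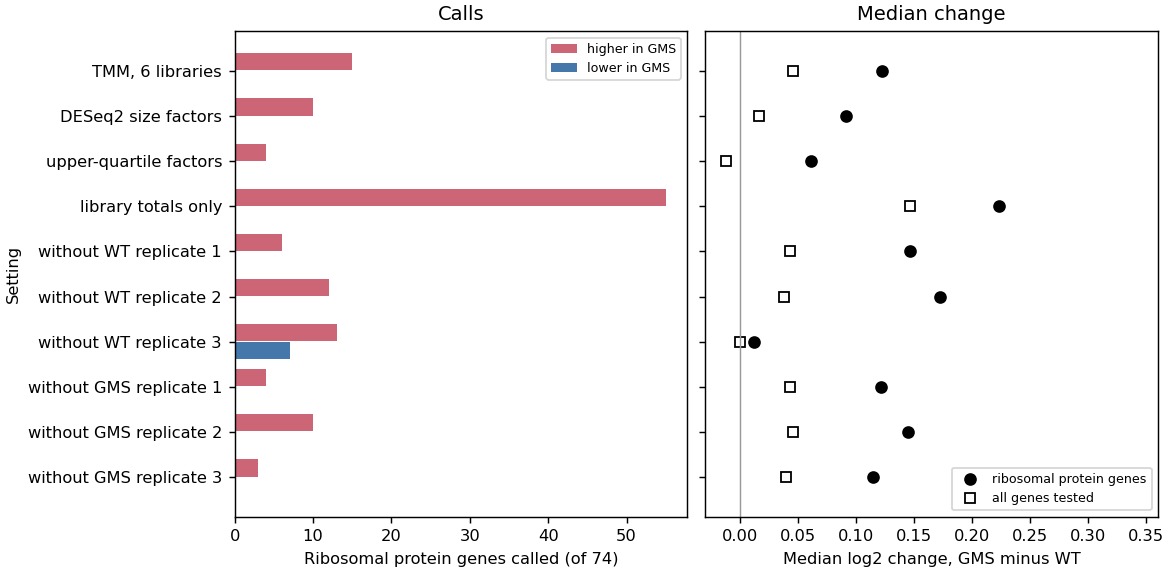
Left, number of tested ribosomal protein genes called higher or lower in GMS under each scaling and without each library. Right, the median log2 change over these genes (filled) and over all genes tested (open). Calls of higher genes run from 3 to 55, and the members' median is 0.012 without WT replicate 3.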

How the data were processed

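Testis RNA was isolated in TRIzol and made into TruSeq libraries, per the labels' protocols. This kit does not mark strand, so a gene and its antisense partner cannot be separated. HISAT2 2.1.0 and featureCounts 1.6.2 are listed, per the submitters' processing notes. Neither the genome build nor the annotation is named there, so both count as not given in the sources used here. Deposited by the authors were whole-number read counts per gene for 6 libraries and RPKM values per gene and library. The RPKM values were scaled to totals of 48248888 to 68701498 reads, and the count table held 40.1% to 42.5% of those. Symbols and neighbours came from the RefSeq gene table of assembly ASM3026992v2, which gave a symbol for 13030 of 15884 identifiers. Gene length is the length implied by the authors' counts and RPKM, whole within 0.01 for 100% of gene values with reads in a library. The read totals behind the RPKM values were found as those that gave whole lengths in abundant genes, so part of this agreement is built in.

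Counts were tested across the whole table in edgeR 4.0.16 (R 4.3.3; glmQLFTest, the quasi-likelihood test), TMM factors, filterByExpr (12029 genes kept, 3855 removed) and no covariate. Calls are at a Benjamini-Hochberg adjusted p under 0.05. The standard error is the log2 change divided by the square root of F. Levels are TMM-normalised CPM. Changes relative to the family used the family's reads as library size. Single values per library were compared by exact permutation. The script was tested on simulated data with 200 changed genes. Floors of 3 counts cover counting error only. No 2 libraries agreed within sampling noise.

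Alternatives were DESeq2 1.42.0, limma 3.58.1 (voom, and on log2 RPKM with a pseudocount of 1 or 0.1), other scalings and filters, a replicate block and leaving out each library. Adding the 4 ribosomal symbols outside the rule was chosen after the data were seen.

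The members and the gene lists were chosen with earlier results of these data known. Named members were those called in either fit, the 5 highest and 5 lowest by RPKM, the 3 largest and 3 smallest changes, the stalk proteins, ubiquitin fusions, RpL41, RpS6, those not tested, and up to 4 genes of each list. The rule also takes 1 gene that is not reported here. RpL23A, RpL32, RpS2e, RpS9, RpS29 and genes named for their place in the genome lie outside it. Rpa1 and Rpa2 matched the biogenesis list by symbol but are subunits of replication protein A by their synonyms, and were left out.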

Additional observations from a re-analysis of the deposited data

How the results depend on the processing

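The members called higher numbered 15 in the main test and 4 with upper-quartile factors, 55 with library totals and 6 with a replicate block (12.1% of all genes). The labels do not say that replicate numbers pair the libraries, so the block is given here only. Correlations of deviations were 0.05, -0.17 and -0.17 for the same number and -0.13 to 0.20 for other numbers. With 3 libraries per group they cannot settle whether the libraries were paired. The block left 1 translation factor lower, and 1 member higher and 0 lower relative to the family. With library totals the members' median was 0.22, 3264 of all genes were higher, and 3 translation factors rose while 0 fell. RPKM fits called 0 translation factors lower with either pseudocount and with a minimum mean of 1, and the last called 1276 of all genes lower. One mitochondrial ribosomal protein was higher (1) in these RPKM fits, with limma-voom and with library totals, and 2 were lower with limma-voom, DESeq2 size factors and upper-quartile factors. Leaving out 1 library gave 3 to 13 members higher, 0 to 7 lower and a median of 0.012 to 0.17. It gave 1 to 12 members higher and 1 to 4 lower relative to the family, 0 to 7 translation factors lower, 0 to 1 mitochondrial ribosomal proteins higher and 1 to 3 lower, 0 to 1 biogenesis genes higher, and 1360 to 3549 of all genes higher and 1634 to 3555 lower. RpL10 went from 0.02 to -0.093 without WT replicate 3 (range -0.093 to 0.050). The causes were not tested. In groups of 3, 1 library weighs heavily on changes this small.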
